A study of Mus musculus with 11 samples.

Results

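The genes described here are 10 regulators of entry into and exit from M phase: the Aurora kinases Aurka, Aurkb and Aurkc, the polo-like kinase Plk1, the NIMA-related kinase Nek2, the cyclin-dependent kinase Cdk1 and its activating phosphatase Cdc25c, the checkpoint component Bub1b, the securin Pttg1 and the anaphase-promoting complex activator Cdc20. They were chosen by name, and all 10 had a row among the 20265 nuclear gene rows of the table of unique molecular identifiers (UMIs, random tags that let each captured mRNA be counted once). Single live cells carrying GFP were sorted from the testes of 3 adult Dazl-GFP reporter mice, untreated, and sequenced by SORT-Seq, which tags the 3′ end of polyadenylated RNA. Dazl is a germ cell gene, so the sort selects cells by the reporter and is not a sample of the whole testis. Mouse 1 was processed with CEL-Seq1 (8 libraries), mouse 2 with CEL-Seq2 (1 library) and mouse 3 with CEL-Seq2 (2 libraries, of which 1 was sorted by gate alone), so protocol and animal cannot be told apart. The mouse is the replicate throughout (n = 3).

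CDK1 bound to a cyclin drives cells into mitosis and into the meiotic divisions, and CDC25 phosphatases switch it on by removing inhibitory phosphates. The Aurora and polo-like kinases build the spindle and correct faulty attachments of chromosomes to it, while BUB1B, as part of the spindle checkpoint, holds back CDC20 until all chromosomes are attached; CDC20 then lets the anaphase-promoting complex destroy cyclin B and securin. In the testis, spermatogonia divide by mitosis, and spermatocytes pass through a long meiotic prophase before dividing again, so the genes can be followed through a mitotic phase and a prophase that precedes the next division.

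Of 1920 wells, 1448 held 1000 or more UMIs of nuclear genes, with a median of 9830 to 16275 UMIs per kept well in the 3 mice. Clusters of these wells were ordered into 12 stages (1236 cells) without use of the 10 genes or of 77 further M-phase genes. The naming of stages did use Hspa2, which is both 1 of the 77 and a pachytene marker. Stages 1 to 3 were spermatogonia-like (315 cells), stage 4 preleptotene-like, stages 6 to 9 leptotene and zygotene-like (429 cells), and stages 11 and 12 pachytene-like. Stage 12, the last, is called late pachytene (131 cells), and stages 5 and 10 stayed unnamed. The names were rebuilt from marker genes: the summed level of the leptotene and zygotene markers was 10151 to 12999 CPM (UMIs per 1000000 nuclear UMIs) in the class of that name and 2035 to 2719 in spermatogonia, and that of the pachytene markers was 7247 to 12851 in late pachytene and 436 to 1351 in spermatogonia. The preleptotene markers averaged 1264 CPM in sum in stage 4, below 3639 in the unnamed stage 5 and 2090 in stage 6. Stage 4 also kept markers of differentiating spermatogonia (783, against 1154 in stage 3 and 314 in stage 5). Its name is thus uncertain, and it entered none of the 3 classes compared. The pachytene markers do not set stage 12 apart from its neighbour: their mean sum was 11459 CPM in stage 11 and 10926 in stage 12, and 0 of the 10 leading genes of stage 12 were among them, so "late" rests on the order of the stages. Stage 9 carried pachytene markers too, with a mean sum of 5727 against 1596, 1944 and 2409 in stages 6, 7 and 8. Its leptotene and zygotene sum was 9661, against 15413, 12361 and 12952 in those stages. Of the other cell types, 6 of 8 Sertoli markers had a UMI in spermatogonia (44.7 to 68.0 CPM in sum, Amh and Inhba at 0) and 5 of 8 in late pachytene (1.98 to 5.45, Amh, Rhox5 and Inhba at 0), and their part in the results was not tested. They were highest at stage 5, where 6 of 8 had a UMI and the sums were 405, 183 and 593 CPM in mice 1, 2 and 3, with Amh and Inhba at 0. When the cells were staged from even-numbered autosomes, 52 cells with Clu, Sparc and Cldn11 among their leading genes were set aside as somatic. Their 10 leading genes also held Rec8, and the germ cell list they matched best was preleptotene, with 1 marker among the 10. Whether these wells held mixed RNA was not tested. Leydig markers summed to at most 13.9 CPM in any of the 3 classes, with Cyp17a1, Cyp11a1 and Insl3 at 0 in spermatogonia.

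The levels of Cdk1 and Cdc20 followed each other most closely over the stages. From stage 5 to stage 12 the mean of Plk1 stayed at or below 31.7 CPM, while that of Aurka reached 145 at stage 9. The start regions of these 4 members are therefore shown. Each is read 5′ to 3′ towards the start from the RefSeq table of GRCm38.p6, up to 250 bases before the start and without bases that lie inside the annotated gene. Capitals mark CCAAT (or its complement ATTGG) and the cell cycle homology region, CHR, searched as TTTGAA or TTCGAA on both strands.
Cdk1: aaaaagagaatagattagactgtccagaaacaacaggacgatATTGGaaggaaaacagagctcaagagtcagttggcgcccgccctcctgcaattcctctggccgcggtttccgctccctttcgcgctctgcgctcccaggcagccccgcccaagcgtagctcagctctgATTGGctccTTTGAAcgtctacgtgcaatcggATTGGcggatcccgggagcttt
Cdc20: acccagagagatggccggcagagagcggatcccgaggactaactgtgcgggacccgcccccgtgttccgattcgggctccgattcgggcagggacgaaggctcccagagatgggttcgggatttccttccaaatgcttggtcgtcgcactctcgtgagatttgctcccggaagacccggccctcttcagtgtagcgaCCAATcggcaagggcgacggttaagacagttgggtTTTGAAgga
Plk1: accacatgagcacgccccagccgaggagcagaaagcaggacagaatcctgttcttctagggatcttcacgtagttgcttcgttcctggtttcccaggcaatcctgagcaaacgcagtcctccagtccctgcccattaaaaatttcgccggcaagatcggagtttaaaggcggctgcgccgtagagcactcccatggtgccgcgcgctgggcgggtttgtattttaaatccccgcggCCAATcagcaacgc
Aurka: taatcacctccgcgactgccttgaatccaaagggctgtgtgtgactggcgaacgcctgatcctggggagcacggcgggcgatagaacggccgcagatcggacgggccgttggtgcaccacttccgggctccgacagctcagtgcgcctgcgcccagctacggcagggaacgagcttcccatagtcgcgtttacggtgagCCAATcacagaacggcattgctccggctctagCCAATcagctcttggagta
These lie at chr10:69352939-69353162 (minus strand), chr4:118437353-118437593 (minus), chr7:122159185-122159434 (plus) and chr2:172370571-172370820 (minus). Windows of 250 bases were found for 8 of the 10 genes, and Aurkb and Cdc25c had none in the table. CCAAT occurred in 6 of the 8, against 33.8% of 32851 mouse windows of that length. These counts use the full windows, including bases inside the annotated gene. The only CCAAT of Nek2 lies in the 29 bases of its window that are inside the gene. All 250 bases of the Pttg1 window lie inside its gene. The CHR letters occurred in 3 of the 8 (Cdk1, Bub1b and Cdc20), against 17.1% of all windows. The MYB motif AACNGTT occurred in 0 of the 8, against 3.8% of all windows. No matches of different motifs overlapped in the 4 sequences shown, and a match describes letters only.

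In the GENCODE annotation of GRCm38 the kinase genes lie at chr2:172356190-172370535 (Aurka), chr11:69045647-69051664 (Aurkb), chr7:6995300-7003091 (Aurkc), chr7:122159439-122169873 (Plk1), chr1:191821444-191833050 (Nek2) and chr10:69335146-69352938 (Cdk1). Bub1b lies at chr2:118598211-118641591, Pttg1 at chr11:43420250-43426251, Cdc20 at chr4:118432901-118437352 and Cdc25c at chr18:34732993-34751533. Cdc20 overlaps Elovl1 on the other strand, and whether the counting used strand is not given in the sources used here, so reads of the overlap cannot be told apart.

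The 10 genes fell into groups by their course through the stages. All levels below are in CPM, and 3′ tags give 1 count per molecule and are not scaled by length. Levels of Aurkb, Plk1 and Cdc25c were high in spermatogonia and low in late pachytene. Levels of Aurka, Cdk1, Pttg1 and Cdc20 were low around stages 5 and 6 and high again from stage 8 or 9. Nek2 had a mean of 75.0 to 113 through stage 7 and 232 at stage 8. The low at stage 5 came with the Sertoli marker sums of 183 to 593 CPM given above, against 34.4 to 79.4 at stage 6 and 16.8 to 51.9 at stage 7, and the part of these cells or their RNA in it was not tested. Aurkc had its highest level at the last stage, and Bub1b its lowest mean at stage 6, with the low at stage 7 in mice 1 and 2.

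**Figure D1:**
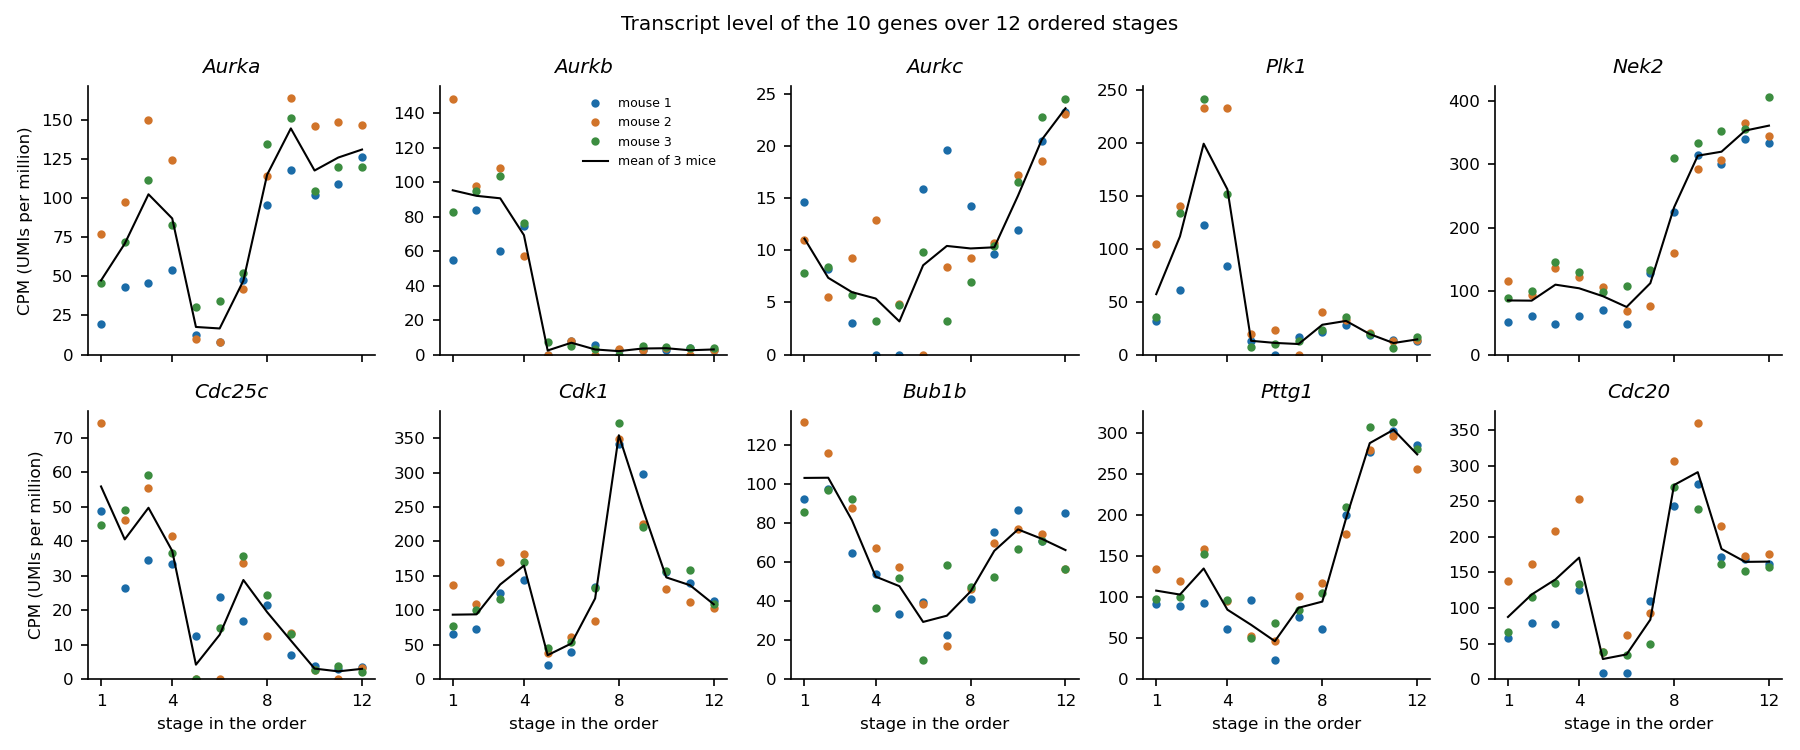
Level of each gene (CPM, vertical axis, from 0) in 12 ordered stages (horizontal axis), with 1 point per mouse and the mean of 3 mice as a line. Cdk1 had its highest mean level at stage 8 (354 ± 16.4 SD), whereas the mean of Aurkb stayed at or below 6.85 from stage 5 onwards.

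Aurkb, the kinase of the chromosomal passenger complex in mitosis, was read at 69.7, 115 and 93.5 CPM in the spermatogonia of mice 1, 2 and 3. In late pachytene the same mice gave 2.70, 2.64 and 3.53. The groups did not overlap, with a log2 fold change of -4.53 ± 0.23 (SE; edgeR quasi-likelihood test, Benjamini-Hochberg adjusted p = 5.71e-12). By stage, the mean went from 69.2 ± 10.7 (SD, n = 3) at stage 4 to 2.36 ± 4.09 at stage 5, where 3 UMIs were counted in all and the Sertoli markers were at their highest sum (mean 394 CPM). At stages 6 and 7, with Sertoli sums of 63.6 and 39.8 on average, Aurkb gave 6.85 ± 1.68 and 2.95 ± 2.81. Leptotene and zygotene (3.29, 3.18 and 3.24) was as far below spermatogonia (log2 fold change -4.53 ± 0.27, edgeR adjusted p = 1.75e-10).

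Aurkc, the paralogue known for its role in the meiotic divisions, ran the other way. It was read at 8.24, 8.20 and 7.53 CPM in spermatogonia and at 23.3, 23.1 and 24.5 in late pachytene. The groups did not overlap (log2 fold change 1.86 ± 0.28, edgeR adjusted p = 1.03e-05). Against leptotene and zygotene, with 12.4, 8.47 and 8.11, it was also higher in late pachytene (log2 fold change 1.34 ± 0.29, edgeR adjusted p = 0.000819).

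Aurka, which acts at centrosomes and spindle poles, gave 38.2, 109 and 74.1 CPM in spermatogonia and 126, 147 and 120 in late pachytene. All late pachytene values lay above all spermatogonia values (log2 fold change 1.22 ± 0.18, edgeR adjusted p = 6.76e-06). The spermatogonia of mouse 1 were the lowest of the 3. Leptotene and zygotene (98.1, 110 and 117) was higher than spermatogonia in each mouse (log2 fold change 0.87 ± 0.19, edgeR adjusted p = 0.000546), a call lost without the mouse block (adjusted p = 0.0512). The mean was 16.7 ± 15.3 at stage 6 and 145 ± 23.6 at stage 9.

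Plk1, needed for centrosome maturation and for the exit from mitosis, gave 71.8, 160 and 132 CPM in spermatogonia and 12.9, 13.9 and 16.2 in late pachytene. The groups were far apart, with a log2 fold change of -2.66 ± 0.19 (edgeR adjusted p = 3.5e-10). Leptotene and zygotene was lower than spermatogonia too (log2 fold change -1.94 ± 0.19, edgeR adjusted p = 9.63e-08). Its mean level was highest at stage 3 (199 ± 66.3) and 31.7 ± 3.75 at stage 9, so most of the level was not regained over the stages. Against leptotene and zygotene (23.4, 29.7 and 24.9) late pachytene was lower by the main test (log2 fold change -0.72 ± 0.22, edgeR adjusted p = 0.00982). That call was lost without the mouse block (adjusted p = 0.0624), without mouse 1 (adjusted p = 0.124) and with the staging from even-numbered autosomes (-0.18, adjusted p = 0.521).

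Nek2, a centrosome kinase that is also active in meiotic spermatocytes, had the largest rise among the 6 kinases of the 10 genes in the comparison of late pachytene with spermatogonia. Leptotene and zygotene (255, 190 and 268 CPM) was higher than spermatogonia (log2 fold change 1.63 ± 0.20, edgeR adjusted p = 1.44e-06). Nek2 was read at 54.7, 113 and 109 CPM in spermatogonia and at 333, 345 and 406 in late pachytene. The groups did not overlap (log2 fold change 2.31 ± 0.20, edgeR adjusted p = 6.09e-09). Stage 7 gave a mean of 113 ± 31.9, stage 8 one of 232 ± 74.6 and stage 9 one of 314 ± 20.7. It was higher in late pachytene than in leptotene and zygotene (log2 fold change 0.67 ± 0.19, edgeR adjusted p = 0.00605), a call lost without mouse 2 (adjusted p = 0.0845) and without the block (adjusted p = 0.0751).

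Cdk1 and its activator Cdc25c took different courses. Cdc25c was read at 34.1, 56.7 and 50.4 CPM in spermatogonia and at 3.53, 3.30 and 2.09 in late pachytene (log2 fold change -3.69 ± 0.29, edgeR adjusted p = 1.35e-09). It was lower in leptotene and zygotene (12.8, 13.8 and 20.5) than in spermatogonia (log2 fold change -1.34 ± 0.25, edgeR adjusted p = 0.000147) and lower again in late pachytene (-2.35 ± 0.32, edgeR adjusted p = 6.6e-06). Its mean was 28.7 ± 10.4 at stage 7 and 3.04 ± 0.708 at stage 10. Cdk1 was read at 86.5, 137 and 97.8 in spermatogonia and at 113, 104 and 109 in late pachytene. These groups overlapped, and the difference did not pass the test (log2 fold change 0.35 ± 0.16, edgeR adjusted p = 0.0665), although it did without mouse 1 (0.36, adjusted p = 0.00942) and without mouse 2 (0.53, adjusted p = 0.0319).

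In leptotene and zygotene Cdk1 gave 276, 228 and 235 CPM, above all spermatogonia values (log2 fold change 1.43 ± 0.17, edgeR adjusted p = 6.9e-07). It then fell to late pachytene (log2 fold change -1.08 ± 0.16, edgeR adjusted p = 1.83e-05). Its mean was 34.8 ± 12.4 at stage 5, where the Sertoli markers were highest, and 354 ± 16.4 at stage 8, where mice 1, 2 and 3 gave 341, 350 and 373. The call against late pachytene was lost when all stages were weighted equally in 1 fit (-0.32, adjusted p = 0.0874).

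Pttg1, the securin that holds separase inactive, gave 90.9, 137 and 113 CPM in spermatogonia and 286, 257 and 281 in late pachytene. The groups were clearly apart (log2 fold change 1.58 ± 0.15, edgeR adjusted p = 2.09e-08). Its mean was 94.6 ± 29.5 at stage 8 and 288 ± 16.7 at stage 10, a later return than that of Cdk1. Leptotene and zygotene, at 141, 129 and 141, was higher than spermatogonia in 2 of 3 mice (log2 fold change 0.49 ± 0.15, edgeR adjusted p = 0.00988); without mouse 1 (adjusted p = 0.0507) or mouse 3 (adjusted p = 0.0902) it did not pass. Late pachytene was higher than leptotene and zygotene in each mouse (log2 fold change 1.09 ± 0.15, edgeR adjusted p = 6.37e-06).

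Cdc20 gave 73.5, 170 and 106 CPM in spermatogonia, 232, 267 and 194 in leptotene and zygotene and 162, 176 and 158 in late pachytene. It was higher than in spermatogonia in both later classes (log2 fold change 1.25 ± 0.18, edgeR adjusted p = 7.42e-06, and 0.87 ± 0.17, edgeR adjusted p = 0.000203), although mouse 2 spermatogonia overlapped late pachytene. When all stages were weighted equally, the first call was lost (0.23, adjusted p = 0.216). Bub1b gave 86.8, 111 and 92.3 in spermatogonia, 58.2, 50.8 and 47.0 in leptotene and zygotene and 85.5, 56.8 and 56.5 in late pachytene. It was lower in leptotene and zygotene than in spermatogonia (log2 fold change -0.69 ± 0.16, edgeR adjusted p = 0.000962), and its difference between late pachytene and spermatogonia did not pass (-0.26 ± 0.15, edgeR adjusted p = 0.121). Without mouse 1 that difference did pass (-0.37, adjusted p = 0.0249), and so it did with DESeq2 size factors (-0.36, adjusted p = 0.0248), which shifted the median of all genes by -0.10. Late pachytene was higher than leptotene and zygotene (0.43 ± 0.16, edgeR adjusted p = 0.0281), a call lost without mouse 2 (adjusted p = 0.0518), without mouse 3 (adjusted p = 0.11) and without the block (adjusted p = 0.132).

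Counts of members are read against all 14874 genes tested. In late pachytene against spermatogonia, 5 of 10 members were higher (Aurka, Aurkc, Nek2, Pttg1 and Cdc20) and 3 lower (Aurkb, Plk1 and Cdc25c), where 32.7% of all genes were called higher and 40.4% lower. The members' median log2 fold change was 0.61 and that of all genes -0.21. In leptotene and zygotene against spermatogonia, 5 were higher and 4 lower, with 28.2% and 31.6% of all genes called. In late pachytene against leptotene and zygotene, 4 were higher and 3 lower, with 23.8% and 26.6% of all genes called. The 4 became 2 without mouse 2, and 2 without the mouse block. With shares of this size over all genes, the counts of members describe the list and are not particular to it. The 3 comparisons share their sums in pairs and are not independent of each other.

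The class of leptotene and zygotene joins stages with low and with high levels, so its sums depend on how many cells each stage gives. Stage 9, which also carried pachytene markers, gave 851 of the 1371 Nek2 UMIs of the class and 360 of the 588 for Aurka. For Pttg1 it gave 538 of 767 and for Cdk1 714 of 1402. Weighted equally over stages, Aurka differed from spermatogonia by -0.01 (adjusted p = 1) instead of 0.87, and Pttg1 by -0.25 (adjusted p = 0.0854). In late pachytene against leptotene and zygotene, Cdc20 turned from -0.38 ± 0.17 (edgeR adjusted p = 0.0714) to 0.62 (adjusted p = 0.00227), and Aurka went from 0.35 ± 0.18 (edgeR adjusted p = 0.112) to 1.24 (adjusted p = 1.12e-07). Without mouse 3 Cdc20 passed as lower (-0.53, adjusted p = 0.0393), and without mouse 1 Aurka passed as higher (0.47, adjusted p = 0.00229).

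Shares of RNA and amounts per spike-in gave different directions for several members. Nuclear UMIs per UMI of the ERCC spike-ins, synthetic RNAs added to the wells, were higher in late pachytene than in spermatogonia by 1.91 ± 0.212 (SD, n = 3) on the log2 scale, and lower in leptotene and zygotene by -0.781 ± 0.0669. Scaled to ERCC, 61% of all genes were called higher and 19.4% lower in late pachytene against spermatogonia, and the median of all genes shifted by 1.62. On that scale 7 of the 10 members were higher, and Aurkb (-2.91 ± 0.26, edgeR adjusted p = 4.51e-11), Plk1 (-1.04 ± 0.20, edgeR adjusted p = 3.42e-05) and Cdc25c (-2.08 ± 0.32, edgeR adjusted p = 9.13e-07) were still lower. Cdk1 (1.97 ± 0.18) and Bub1b (1.37 ± 0.16), not called as shares of RNA, were higher per spike-in, with edgeR adjusted p = 8.49e-11 and 1.24e-08.

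Per spike-in, leptotene and zygotene differed from spermatogonia in the direction of less RNA, with 10.6% of all genes higher and 57.7% lower. Nek2 (0.66 ± 0.22, edgeR adjusted p = 0.00862) and Cdk1 (0.47 ± 0.18, edgeR adjusted p = 0.0224) were higher, Pttg1 was lower (-0.47 ± 0.18, edgeR adjusted p = 0.0246), and Aurka did not differ by the test (-0.10 ± 0.19, edgeR adjusted p = 0.668). Between late pachytene and leptotene and zygotene, 79.7% of all genes were higher per spike-in and 2.85% lower, and 9 of the 10 members were higher, the exception being Cdc25c (0.22 ± 0.36, edgeR adjusted p = 0.561). The median of all genes shifted by -0.96 and 2.58 in these 2 comparisons.

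**Figure D2:**
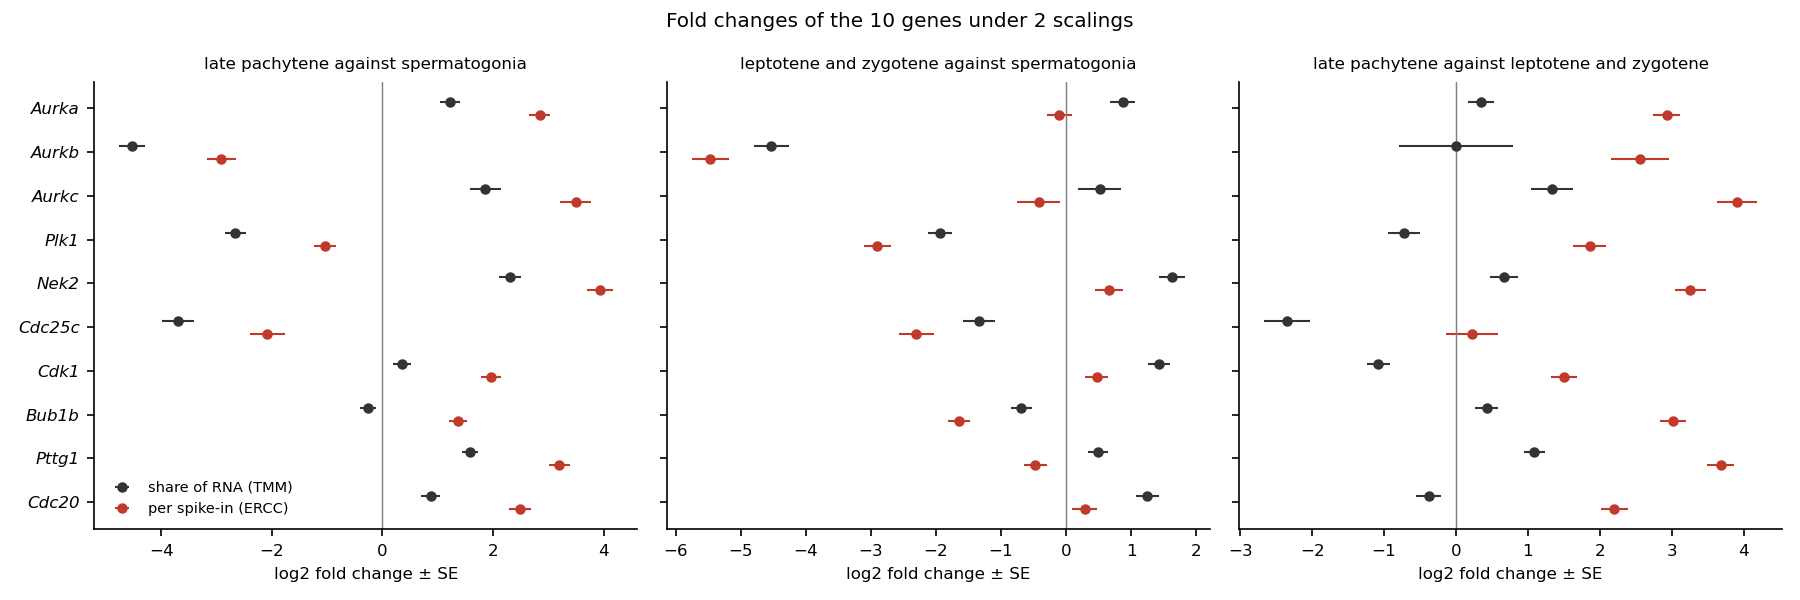
Log2 fold change (horizontal axis, ± SE) of each gene in 3 comparisons, as a share of RNA (TMM scaling, dark) and per ERCC spike-in (red). In late pachytene against spermatogonia, Aurkb, Plk1 and Cdc25c lie below 0 on both scales, and Bub1b changes side, from -0.26 to 1.37.

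A deep cluster of 20 cells (5, 6 and 9 in the 3 mice), too small for a stage, was left out and is described without a test. Its mean levels in CPM were 190 ± 30.1 for Aurka, 41.9 ± 12.7 for Aurkc and 48.4 ± 24.7 for Plk1, against 131 ± 13.8, 23.6 ± 0.789 and 14.3 ± 1.71 in late pachytene. Aurkc in the cluster was read at 32.8, 36.6 and 56.4, above the late pachytene value of each mouse. Plk1 there gave 75.9, 41.2 and 28.2, also above late pachytene in each mouse. In mouse 1 Plk1 was above its 71.8 in spermatogonia, and in mice 2 and 3 it was below their 160 and 132. Aurkb was at 8.25 ± 3.69 and Cdc25c at 4.67 ± 6.67, so neither was near its level in spermatogonia. Joining the cluster to late pachytene, an alternative added after the data were seen, left Plk1 no longer lower than in leptotene and zygotene (-0.34, adjusted p = 0.177).

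Within spermatogonia, the counts of Aurka and Plk1 varied between cells by more than counting alone. Each cell was thinned to 10000 UMIs in 1 random draw, which was not repeated (250 spermatogonia, 65 left out for lower depth, and 131 late pachytene cells). The tenth of spermatogonia with the most Aurka UMIs held 55.0% of them, and for Plk1 45.5%. The variance of Aurka counts divided by their mean, 1 for counting alone, was 1.90 ± 0.315 (SD over mice, n = 3) in spermatogonia and 1.03 ± 0.160 in late pachytene. The mean was 0.604 Aurka UMIs per cell in spermatogonia and 1.31 in late pachytene. For Cdk1, at means of 1.03 and 1.10 UMIs per cell, the ratio was 1.42 ± 0.184 and 0.859 ± 0.142. The 3 mice did not overlap between spermatogonia and late pachytene for Aurka or Cdk1, and no test was made. Ratios above 1 were not particular to spermatogonia. Leptotene and zygotene (186 cells) gave 1.38, 1.30 and 1.65 for Aurka and 1.65, 2.45 and 2.25 for Cdk1 in the 3 mice. Plk1 had a ratio of 2.38 ± 0.331 in spermatogonia at 1.14 UMIs per cell, and its 1.04 ± 0.223 in late pachytene rests on 21 UMIs in 131 cells (0.16 per cell), so the classes were not compared for it.

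Spermatogonia join 3 stages, late pachytene is 1, and the spread was also taken within single stages, from a separate draw for each. Draws can differ: Aurkb in mouse 3 gave 1.00 in spermatogonia and 3.80 in stage 2 alone. In stage 3 alone (79 cells) the ratio for Plk1 was 2.79, 3.04 and 3.01 in the 3 mice, and for Aurka 1.66, 2.22 and 2.02. In stage 1 (65 cells) Plk1 gave 1.23, 0.955 and 1.17 and Aurka 0.857, 1.29 and 1.14. Stage 2 (106 cells) gave 0.905, 3.07 and 1.40 for Aurka, so mouse 1 lay below 1 in both of these stages. For Aurka, of the 3 stages stage 3 alone was above 1 in each mouse. Plk1 in stage 2 gave 1.68, 1.99 and 2.10, so it was above 1 in each mouse there as in stage 3. Cdk1 gave 1.13, 0.969 and 1.07 in stage 1, 1.06, 1.75 and 1.48 in stage 2 and 1.40, 1.41 and 0.882 in stage 3. Within stages 1 and 3 it thus reached its late pachytene values of 1.02, 0.750 and 0.808. In late pachytene at 10000 UMIs, 0% of the 131 cells lacked Nek2, at a mean of 3.52 UMIs per cell and a ratio of 0.893 ± 0.0235.

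**Figure D3:**
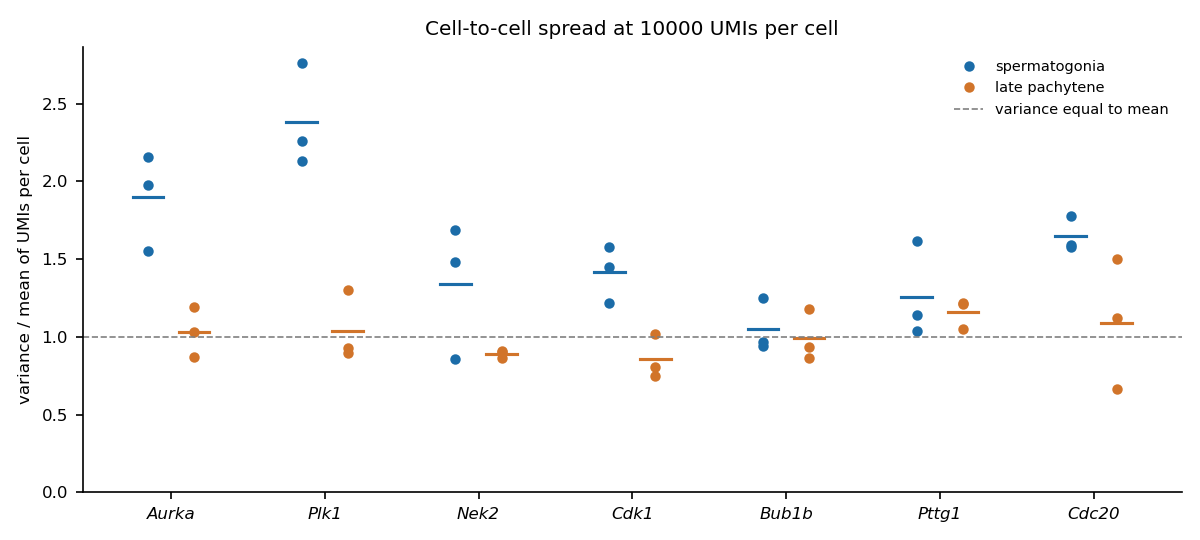
Variance divided by mean of UMIs per cell (vertical axis, from 0) for 7 genes at 10000 UMIs per cell, 1 point per mouse and the mean of 3 mice as a bar, with a dashed line where they are equal. Aurka in spermatogonia lies at 1.55 to 2.16, and in late pachytene at 0.869 to 1.19. Plk1 in late pachytene has 21 UMIs in 131 cells.

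Shares of cells with a UMI were compared at 3000 UMIs per cell, also from 1 random draw. This depth left out 8 spermatogonia, 54 leptotene and zygotene cells and 0 late pachytene cells. Nek2 was found in 20.2% ± 5.67 (SD, n = 3) of spermatogonia, 37.9% ± 7.62 of leptotene and zygotene cells and 70.3% ± 3.91 of late pachytene cells. Unthinned, the shares were 67.3% ± 8.81, 69.0% ± 9.98 and 100% ± 0, at median depths of 23376, 9892 and 90941 UMIs. Plk1 went from 27.9% ± 6.23 of spermatogonia to 4.31% ± 2.61 of late pachytene cells, and Aurkb from 19.5% ± 6.21 to 2.52% ± 2.20. As a gauge of free RNA, the UMIs of the spermatid genes Prm1, Prm2, Tnp1 and Tnp2 were summed. They were found in 10.7% ± 10.6 of spermatogonia, 15.8% ± 8.15 of leptotene and zygotene cells and 6.72% ± 5.85 of late pachytene cells. The 8 wells with at least 0.5% spermatid gene UMIs had already been left out, a limit set after the clusters were seen. The gauge is therefore capped by that filter and cannot show how much free RNA there was before it. In late pachytene Aurkc was found in 6.23% ± 1.94 of cells and Cdc25c in 0.629% ± 1.09. In mouse 1 the spermatid genes were found in 0% of late pachytene cells, and Aurkc, Aurkb and Plk1 in 4%, 4% and 2%. The gauge sums 4 genes, so it sets no level for a single gene, and the late shares of these members were not separated from free RNA.

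The genes whose course over the 36 stage-by-mouse sums was most like that of a member were named by Pearson's r among 7904 genes, as a description; the sums of a mouse share their libraries. For Cdk1 the nearest gene was Cdc20 (r = 0.90), then Srrm1 and Naa35 (both 0.86). For Aurka they were Cdc27, a subunit of the anaphase-promoting complex, Drap1 (both 0.92) and Cdc20 (0.89). For Plk1 they were Rpl37a (0.87), Fam83d and Scarb1 (both 0.85), and for Cdc25c Bcl10 (0.86), Incenp, which anchors Aurora B, and Cox7b (both 0.83). For Aurkb they were Rps2, Psmb2 and Eif3d (all 0.90), and for Aurkc Sugt1 (0.78), Usp21 and Srpk2 (both 0.77). For Nek2 they were Spesp1 (0.96), AA467197 and Ppp1r11 (both 0.95), for Pttg1 Nsmce1, Ift27 and Pcbp1 (all 0.92), for Bub1b Mcm7 (0.85), Ppp4r1 and Gadd45gip1 (both 0.84), and for Cdc20 Cdk1, Cdc27 and Rtca (all 0.90).

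The other 77 M-phase genes of the lists were split between directions. In late pachytene against spermatogonia, 23 were higher and 38 lower, with a median log2 fold change of -0.38, where 32.7% of all genes were higher and 40.4% lower with a median of -0.21. Of 12 partners of CDK1, 5 were higher and 7 lower. The A-type cyclin Ccna2 had the largest fall of these (-4.78 ± 0.16, edgeR adjusted p = 3.26e-13), followed by the phosphatase Cdc25b (-4.63 ± 0.54, edgeR adjusted p = 3.16e-07) and the cyclin Ccnb3 (-3.92 ± 0.51, edgeR adjusted p = 1.4e-06). The largest rise among the 12 was that of Hspa2 (3.77 ± 0.23, edgeR adjusted p = 6.23e-11). Hspa2 is among the pachytene marker genes by which late pachytene was named, so its rise is built into the class. The B-type cyclins split, and they were chosen for mention after their values were seen: Ccnb1 fell (-3.34 ± 0.18, edgeR adjusted p = 1.28e-11) and Ccnb2 rose (1.26 ± 0.17, edgeR adjusted p = 2.93e-06).

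Of 12 cofactors of the Aurora and polo-like kinases, 3 were higher and 5 lower. The haspin gene Gsg2, whose kinase marks histone H3 for the passenger complex, rose (2.60 ± 0.16, edgeR adjusted p = 4.4e-11). The kinase genes Mastl (-2.09 ± 0.21, edgeR adjusted p = 4.39e-08) and Plk3 (-5.06 ± 1.01, edgeR adjusted p = 0.000196) fell. Plk3 was scarce throughout, at 2.94, 3.73 and 7.53 CPM in spermatogonia and 0.208, 0 and 0 in late pachytene, so the size of its fall is uncertain. Of 18 checkpoint and kinetochore genes, 7 were higher and 8 lower, with Zwint (-2.42 ± 0.25, edgeR adjusted p = 8.2e-08) and Trip13 (-1.69 ± 0.15, edgeR adjusted p = 8.23e-09) down and Mad1l1 (1.88 ± 0.18, edgeR adjusted p = 1.84e-08) up.

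Of 19 genes of the anaphase-promoting complex and its regulators, 5 were higher and 8 lower. Its 2 paralogous inhibitors moved apart: Fbxo5, which acts in mitotic cells, fell (-3.21 ± 0.25, edgeR adjusted p = 1.1e-09), and Fbxo43, known from meiosis, rose (3.01 ± 0.20, edgeR adjusted p = 1.36e-10). The ubiquitin-conjugating enzyme Ube2c fell (-2.30 ± 0.17, edgeR adjusted p = 8.14e-10). Separase, Espl1, fell by 0.80 on the log2 scale (± 0.13, edgeR adjusted p = 1.67e-05), and Sgol1 fell (-1.83 ± 0.19, edgeR adjusted p = 5.43e-08). Sgol2, the shugoshin that protects centromeric cohesion in meiosis, rose (0.77 ± 0.16, edgeR adjusted p = 0.000255). It was higher in each mouse, but the groups overlapped (201, 203 and 139 CPM, against 116, 157 and 112 in spermatogonia). Of 13 proliferation markers, 8 were lower and 2 higher, led by Mcm2 (-6.21 ± 0.25, edgeR adjusted p = 6.96e-13), Tk1 (-5.43 ± 0.38, edgeR adjusted p = 2.64e-10) and Rrm2 (-3.38 ± 0.25, edgeR adjusted p = 8.31e-10).

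In leptotene and zygotene against spermatogonia, 25 of the 77 were higher and 31 lower, against 28.2% and 31.6% of all genes. Ccnb3 rose here (3.75 ± 0.25, edgeR adjusted p = 6.43e-10) and fell from this class to late pachytene (-7.68 ± 0.37, edgeR adjusted p = 2.03e-11), while Ccna2 fell (-3.12 ± 0.15, edgeR adjusted p = 1.58e-11). The checkpoint kinase gene Bub1 was higher in leptotene and zygotene than in spermatogonia (1.58 ± 0.13, edgeR adjusted p = 1.19e-08) and lower again in late pachytene (-1.48 ± 0.13, edgeR adjusted p = 2.85e-08). Its mean level was 992 ± 102 CPM at stage 6, where the mean of the related Bub1b was lowest (29.4 ± 16.9, from 12 UMIs). By mouse, Bub1b was lowest at stage 6 in mouse 3 alone (9.82, from 2 UMIs). In mice 1 and 2 it was lowest at stage 7 (22.4 and 16.85, against 39.7 and 38.55 at stage 6). In late pachytene against leptotene and zygotene, 13 of the 77 were higher (22 without mouse 1) and 34 lower, against 23.8% and 26.6% of all genes, among them Ccna1 (2.74 ± 0.38, edgeR adjusted p = 8.24e-06) higher and Ccnb1 (-1.82 ± 0.19, edgeR adjusted p = 2.29e-07) lower.

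**Figure D4:**
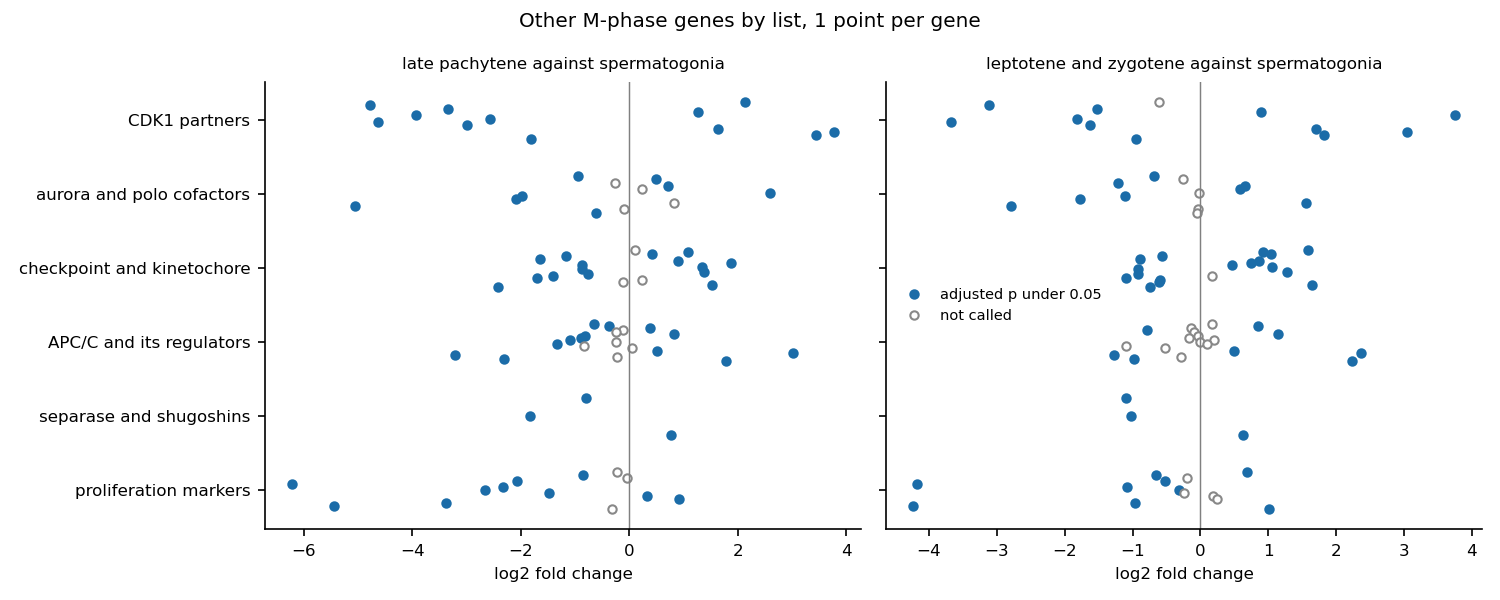
Log2 fold change (horizontal axis) of 77 M-phase genes in 6 lists, 1 point per gene, filled where the edgeR adjusted p was under 0.05. Genes of most lists lie on both sides of 0, and the CDK1 partners spread from -4.78 (Ccna2) to 3.77 (Hspa2) in late pachytene against spermatogonia. Hspa2 is also a pachytene marker used to name the class.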

How the data were processed

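Single-cell libraries from 3 mice were read as UMI counts per gene and well, as the authors deposited them. Per the submitters' processing notes, reads were mapped with BWA 0.7.10 and the build was mm10; the annotation and any use of strand are not given in the sources used here. The deposited read counts served as an alternative. Spike-in, mitochondrial and Rn45s rows stayed out of library sizes. The 4-base UMIs assumed for mouse 1 and 6-base UMIs for mice 2 and 3 allow 256 and 4096 tags, and the highest counts of a gene in a well were 256, 4043 and 2379.

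Wells with 1000 or more UMIs were kept: 545 of 768, 321 of 384 and 582 of 768. The 8 wells with at least 0.5% spermatid gene UMIs were left out, a limit set after the clusters were seen. Cells were aligned between mice with Seurat 5.3.0 on 1500 variable genes of odd-numbered autosomes (15 dimensions) and clustered with scanpy 1.11.5 at resolution 1. A stage needed 10 cells in 2 mice and a median depth of at least 1/3 of the median of all cells. Stage 11 has 4 cells of mouse 2. Doublets were not called, since 1 cell was sorted per well, and 0 pairs of wells were identical. The 3 low-depth clusters (184 cells) were not analysed here.

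Counts were summed over mouse and class (9 sums) and tested with edgeR 4.0.16 (quasi-likelihood, TMM, mouse as block, at least 20 UMIs over the sums, Benjamini-Hochberg over all genes, adjusted p under 0.05). SE is the log2 fold change divided by the root of F. Sums of 1 mouse deviated together (r from 0.51 to 0.84), and the pairing comes from the shared animal. The test was also run on simulated data, but the outcome is not given here, so that run lends the calls no weight. DESeq2 1.42.0 and the other alternatives are in the closing section. Genes were named by rule: all members, up to 3 genes per list and comparison with the largest called change in 3 of 3 mice, and the 3 genes most like each member. The members and lists were chosen with earlier results of these data known. 0 columns of per-sample values were left unused.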

Additional observations from a re-analysis of the deposited data

Results flagged for a closer look

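The 472 wells with fewer than 1000 UMIs entered no comparison, yet together they held 176 UMIs of the 10 genes among 179485 nuclear UMIs. Nek2 had 36 of these UMIs (201 CPM) and Aurkb 4 (22.3 CPM). No control wells are labelled, so the values are given without comparison.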

How the results depend on the processing

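Of 510 fold changes of members under 17 alternatives per comparison, 450 kept direction and side of the threshold, 20 fell below it, 17 passed it and 23 changed sign. Scaling to ERCC moved the counts most. Members in leptotene and zygotene against spermatogonia went from 5 to 2 higher; in late pachytene against leptotene and zygotene they went from 4 to 9 higher and from 3 to 0 lower. Pathway genes went to 51 higher and 16 lower, 8 higher and 55 lower, and 70 higher and 1 lower in the 3 comparisons. Its sign changes were Bub1b 1.37 in late pachytene against spermatogonia; Aurka -0.10, Aurkc -0.42 and Pttg1 -0.47 in leptotene and zygotene against spermatogonia; and Aurkb 2.56, Plk1 1.86, Cdc25c 0.22, Cdk1 1.5 and Cdc20 2.20 in the third comparison. With all stages in 1 fit, members were 2 higher in leptotene and zygotene against spermatogonia (Aurka -0.01 and Pttg1 -0.25 changed sign), 1 lower in late pachytene against leptotene and zygotene (Cdc20 0.62 changed sign), and 25 pathway genes were higher there. Without the replicate block (the pairing by mouse), 2 members were higher there; 4 calls of members were lost (Aurka in leptotene and zygotene against spermatogonia, and Plk1, Nek2 and Bub1b in the third comparison) and no other changed. Aurkb, near 0 in that comparison, took positive values with DESeq2 size factors (0.05), DESeq2 (0.04), filterByExpr (0.06), no filter (0.03), collision-corrected UMIs (0.06), wells of 2000 UMIs (0.12), even-autosome staging (0.67), resolution 0.6 (0.29), without mouse 1 (0.38; -0.28 without mouse 3) and, added after seeing the data, with spermatid wells kept (0.71) and the small late cluster joined (0.35). Leaving out 1 mouse gave 2 to 5 members and 10 to 22 pathway genes higher there. The number of members with their highest level at stage 12 was 2 as shares of RNA and 7 per spike-in, and the number whose share of cells was higher in late pachytene than in spermatogonia in every mouse was 5 at 3000 and 3 at 1500 UMIs. The cause was not tested. Depth limits Aurkb, Aurkc and Cdc25c most: Aurkb had 18 and 39 UMIs in all in the later 2 classes.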
